A study of Bos taurus with 12 samples.

Results

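The collagens, laminins and matrix proteases of cattle fat were followed across 2 breeds and 2 fat depots. Members were the genes whose array symbol was a numbered collagen chain (COL), a laminin chain (LAMA, LAMB or LAMC), a matrix metalloproteinase (MMP), a tissue inhibitor of metalloproteinases (TIMP) or a protease of the ADAMTS family. This gave 49 genes of the 9155 with a symbol of their own on the array: 23 collagens, 5 laminins, 11 MMPs, 4 TIMPs and 6 ADAMTS genes. Each gene was read through its brightest probe set, the group of short probes on the array that stands for one transcript. Other chains, such as LAMA2 and COL6A3, were not analysed here.

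RNA came from Japanese Black (JB) steers, a beef breed known for marbled meat, and from Holstein (HS) steers, a dairy breed, and every animal received energy-rich feeding. Intramuscular fat (IMF), taken from within muscle, and subcutaneous fat (SCF), taken from under the skin, gave 4 groups: JB IMF, JB SCF, HS IMF and HS SCF. Each group held 3 samples, 12 in all. IMF samples bear the numbers 1 to 3 and SCF samples 4 to 6 in both breeds, and each was hybridized to its own Affymetrix bovine array. Whether a group's samples were separate animals, or whether IMF and SCF were taken from the same ones, is not in the labels. The p-values therefore cover only the spread between these samples, some of which may be technical. Neither age nor the muscle sampled is given in the labels used here.

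Collagens form the scaffold of connective tissue. Fibrillar collagens (types I, II, III, V, XI and XXVII here) assemble into fibres. Type IV collagen and the laminins build the basement membrane, the thin sheet that wraps every fat cell, muscle fibre and capillary. Fibril-associated collagens such as type XII coat the fibres, type VI forms beaded filaments around cells, and types XV and XVIII lie at basement membranes. MMPs and ADAMTS proteases cut these proteins, and TIMPs block MMPs. In fat, this matrix is made by stromal cells, vessel cells and fat cells themselves, and it is rebuilt as fat cells enlarge.

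Of the 49 members, 38 were bright enough to be tested and 11 fell among the dimmest 30% of probe sets. The untested ones were COL11A2, COL4A4, MMP1, MMP9, MMP13, MMP14, MMP20, ADAMTS2, ADAMTS5, ADAMTS6 and ADAMTS8. Their signals lay between 0 and 109.7, a value reached by MMP9, a gelatin-degrading protease, in HS SCF 6. Among the proteases, 5 of 11 MMPs and 4 of 6 ADAMTS genes were thus too dim to be compared, against 2 of 23 collagens and 0 of 5 laminins and 0 of 4 TIMPs. The number of arrays, 3 a group, limits the precision of every value below.

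Array medians lay between 77.5 and 88.6, apart from HS IMF 3, whose median signal was 58.8. HS IMF 3 also correlated least with its group, with a mean r of 0.805 over all tested probe sets, and it held the highest value of 11 of the 38 tested members (28.9%) and the lowest of 12 (31.6%). Over all 16811 tested probe sets it held the highest value for 21.8% and the lowest for 29.9%. Adipocyte markers were present in every sample, with a summed signal of 19274 to 57004 over 6 genes. Skeletal muscle markers summed to between 42142 and 81327 in IMF and between 4394 and 17182 in SCF. Muscle markers were thus higher in every IMF than in every SCF sample. In such bulk tissue, fewer cells of a type and less RNA per cell cannot be told apart.

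The first comparison was between depots, IMF minus SCF over both breeds. COL5A2, COL18A1 and TIMP4 were lower in IMF, by 1.80-fold, 2.06-fold and 2.89-fold, and COL12A1 was higher in IMF by 2.47-fold. These 4 of 38 tested members passed limma's moderated test at a Benjamini-Hochberg adjusted p below 0.05, 10.5%, where 11.0% of all tested probe sets passed, so that the share of members was near the background. By direction, 1 member was higher and 3 were lower, beside 4.66% and 6.33% of all probe sets. With 1 sample left out the count lay between 0 and 7, beside 5.49% to 13.9% of all probe sets. It was 0 without JB IMF 1, JB IMF 3 or JB SCF 6, where 5.81%, 5.49% and 6.63% of all probe sets passed. Before adjustment, 14 of 38 members (36.8%) had a p below 0.05, against 27.2% of all probe sets. Differences are in log2 units, taken from log2(signal + 16) after quantile normalization, a scale that understates changes of dim genes. They are given ± the standard error (n = 6 samples a depot).

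**Figure D1:**
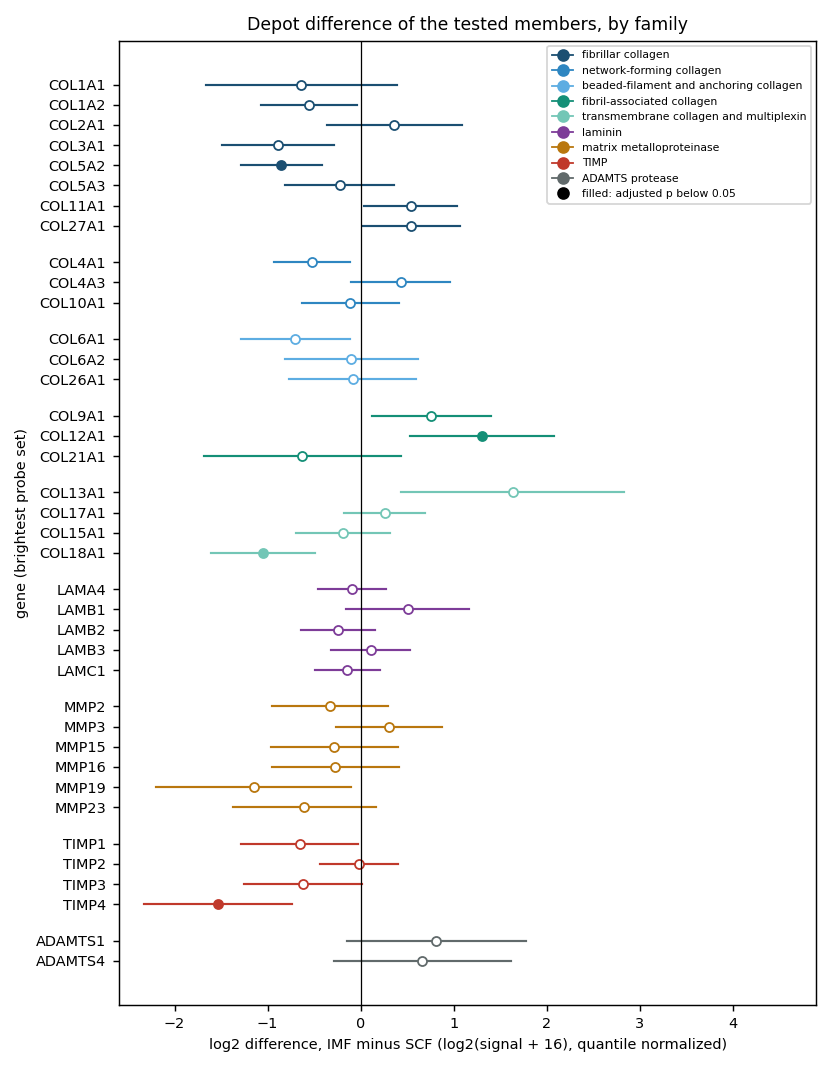
Difference between IMF and SCF over both breeds for the 38 tested members, in log2 units, with the 95% confidence interval as a line; colours mark the families and filled points passed at an adjusted p below 0.05. COL5A2 (-0.85), COL18A1 (-1.05) and TIMP4 (-1.53) lie to the left as filled points and COL12A1 (1.31) to the right, while the 5 laminins lie between -0.24 and 0.50.

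Among the fibrillar collagens, COL5A2 encodes a chain of type V collagen, which sits inside type I fibres and governs how wide they grow. Its deposited signal was 1118, 1463 and 907 in JB IMF 1 to 3 and 2120, 2772 and 2552 in JB SCF 4 to 6. In HS it was 796, 977 and 888 in IMF 1 to 3 and 1395, 1547 and 2115 in SCF 4 to 6. IMF was lower than SCF in each breed with no overlap, and over both breeds the only overlap in these signals was JB IMF 2 above HS SCF 4. After normalization all 6 IMF samples lay below all 6 SCF samples, and COL5A2 was lower in IMF by -0.85 ± 0.20 (adjusted p = 0.0192 in limma). The call is lost when JB IMF 1, JB IMF 3, JB SCF 5, JB SCF 6 or HS SCF 6 is left out, with adjusted p-values of 0.0523 to 0.0601.

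COL3A1, the chain of type III collagen, lies next to COL5A2 in the RefSeq annotation with no protein-coding gene between. Its signal was 7889, 9595 and 10879 in JB IMF and 15203, 17077 and 16740 in JB SCF, and in HS 8495, 10581 and 2750 in IMF and 11404, 13036 and 16687 in SCF. Every IMF signal was below every SCF signal, with HS IMF 3 by far the lowest. After normalization the depots overlapped, with HS IMF 2 at 13.67 above HS SCF 4 at 13.61. The normalized difference was -0.89 ± 0.28, with an adjusted p of 0.0594 in limma, which missed the threshold. Without HS IMF 3 it was -0.61 with an adjusted p of 0.0457. COL3A1 passed in 2 of 12 cases with 1 sample left out, with adjusted p-values of up to 0.139 in limma.

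The major fibre-forming chains of type I collagen varied more from sample to sample. COL1A1 had signals of 731, 1136 and 1272 in JB IMF, 1379, 5989 and 4034 in JB SCF, 2560, 1752 and 5907 in HS IMF and 5053, 1101 and 2932 in HS SCF. JB IMF lay below JB SCF, whereas the HS samples of the depots overlapped. The difference over both breeds was -0.64 ± 0.47 (adjusted p = 0.420). COL1A2, the partner chain, ranged from 4361 to 9752 in IMF and from 5188 to 12261 in SCF, a difference of -0.55 ± 0.24 (adjusted p = 0.158).

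The other fibrillar members had small or opposite differences, and none passed. COL27A1 had a difference of 0.54 ± 0.24 and COL11A1, a minor fibril chain best known from cartilage, of 0.54 ± 0.23, with adjusted p-values of 0.164 and 0.153. COL2A1, the cartilage collagen, had 0.36 ± 0.33 and COL5A3 -0.22 ± 0.27. In COL2A1 and COL11A1 the IMF mean contained the single high value of HS IMF 3, with signals of 201 and 175 against 57.4 to 89.7 and 91.1 to 115 in the other IMF samples. In all, 3 of 8 tested fibrillar collagens had a positive and 5 a negative difference, with a median of -0.39 beside -0.06 over all probe sets.

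COL12A1, the member that was higher in IMF, encodes type XII collagen, which bridges fibres and is abundant in tendon and muscle connective tissue. Its signal was 2139, 856 and 1110 in JB IMF and 360, 837 and 476 in JB SCF. In HS it was 1057, 462 and 229 in IMF and 159, 171 and 497 in SCF. JB IMF 1 was the highest sample, the JB depots did not overlap, and in HS the highest SCF sample exceeded 2 of the 3 IMF samples. COL12A1 was higher in IMF by 1.31 ± 0.36 (adjusted p = 0.0371 in limma), the weakest of the 4 calls.

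The COL12A1 call was lost in the values as deposited (1.11, adjusted p = 0.0954) and with arrays centred on the median (1.21, adjusted p = 0.0553), and leaving out 1 sample kept it in 5 of 12 cases. The samples whose absence ended it were JB IMF 1 and 3, JB SCF 4 and 6, HS IMF 1 and HS SCF 4 and 5, with adjusted p-values of 0.0611 to 0.0986. Of the 3 measured tendon and cartilage markers, TNMD and COMP were called higher in IMF, by 2.97 and 3.23, and ACAN had -0.13 (adjusted p = 0.683). The summed signal of the 3 was 542 to 2781 in JB IMF, 62.0 to 102 in JB SCF, 170 to 1677 in HS IMF and 95.9 to 111 in HS SCF. JB IMF 1 and HS IMF 1, the highest samples of COL12A1 in their groups, were also the highest in these markers. In SCF the highest samples differed, JB SCF 5 and HS SCF 6 for COL12A1 and JB SCF 6 and HS SCF 5 for the markers. HS IMF 2 exceeded HS IMF 3 in COL12A1 but lay below HS IMF 3 in the markers (170 against 304). The part of tendon RNA in the COL12A1 result was not tested.

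The other fibril-associated collagens did not pass. COL9A1 had a difference of 0.76 ± 0.29 (adjusted p = 0.120) from signals between 45.6 and 106 in IMF and between 23.5 and 75.1 in SCF. COL21A1 had -0.63 ± 0.49 (adjusted p = 0.444) and was among the most variable members, with signals between 54.6 and 224 in IMF and between 60.1 and 499.9 in SCF.

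COL18A1 encodes type XVIII collagen, a basement membrane collagen that releases endostatin. Its signal was 87.4, 190 and 151 in JB IMF, 152, 272 and 226 in JB SCF, 78.1, 37.0 and 30.7 in HS IMF and 252, 131 and 181 in HS SCF. The HS depots were fully apart, while JB IMF 2 exceeded JB SCF 4. COL18A1 was lower in IMF by -1.05 ± 0.26 over both breeds (adjusted p = 0.0232 in limma). Without JB IMF 1, JB IMF 3, JB SCF 5, JB SCF 6 or HS SCF 6 the adjusted p was 0.0530 to 0.0676.

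COL13A1, a transmembrane collagen known from the neuromuscular junction, had the largest difference of any member, 1.63 ± 0.55, but did not pass (adjusted p = 0.0784). Signals of 221, 54.1 and 440 in JB IMF and 212 in HS IMF 1 stood against 12.2 and 14.3 in HS IMF 2 and 3 and 5.02 to 40.6 in SCF. The difference thus came from 4 of the 6 IMF samples. The related COL15A1, a basement membrane multiplexin, had -0.19 ± 0.23 and COL17A1, an epithelial anchoring collagen, 0.26 ± 0.20.

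**Figure D2:**
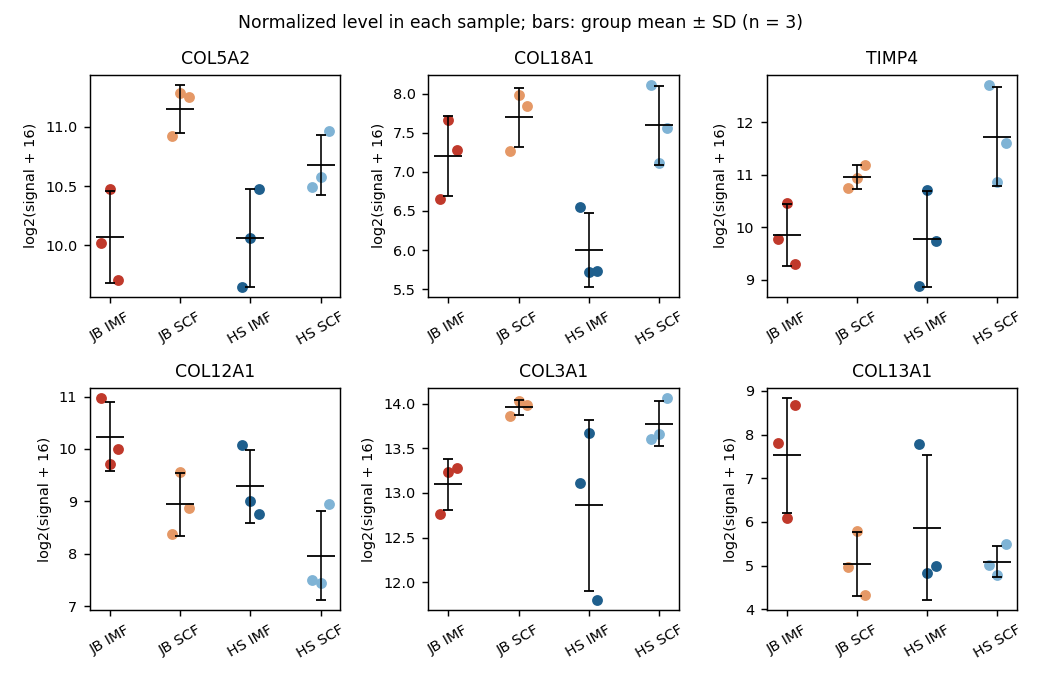
Normalized level, log2(signal + 16), of COL5A2, COL18A1, TIMP4, COL12A1, COL3A1 and COL13A1 in each sample by group; horizontal bars are group means and whiskers the SD (n = 3). COL5A2 and TIMP4 are lower in all IMF than in all SCF samples, COL18A1 separates the depots in HS alone, and COL13A1 is high in the JB IMF samples and in 1 HS IMF sample.

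COL4A1, the most common chain of type IV collagen, had signals of 7347 to 10329 in JB IMF, 12325 to 12728 in JB SCF, 4683 to 7382 in HS IMF and 6281 to 12690 in HS SCF. Its difference of -0.52 ± 0.19 missed the threshold (adjusted p = 0.0984). HS SCF 4, at 6281, lay apart from the other 5 SCF samples, and without it the difference was -0.62 with an adjusted p of 0.0428. COL4A1 passed in only 1 of 12 cases with 1 sample left out, with adjusted p-values of up to 0.231 in limma. COL4A3, a chain best known from kidney, had 0.43 ± 0.24 and COL10A1 -0.11 ± 0.24, and neither passed.

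COL6A1, a chain of the type VI filaments that surround fat and muscle cells, had signals between 1032 and 4802 in IMF and between 4543 and 7599 in SCF. Its difference was -0.70 ± 0.27 (adjusted p = 0.116). COL6A2, encoded beside COL6A1, had -0.10 ± 0.33 through its brightest probe set, and COL26A1 had -0.08 ± 0.31.

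None of the 5 laminin chains passed, and their differences lay between -0.24 and 0.50. LAMC1, the gamma chain shared by most laminins, had signals between 3334 and 6640 in IMF and between 4622 and 7381 in SCF, and a difference of -0.14 (95% interval -0.49 to 0.21). LAMA4, an alpha chain of vessel and fat cell basement membranes, had -0.09 (-0.46 to 0.28), and LAMB2 -0.24 (-0.64 to 0.16). LAMB3 had 0.11 (-0.32 to 0.53) and LAMB1 0.50 (-0.16 to 1.17). The intervals are narrow around 0 for LAMC1 and LAMA4 and wide for LAMB1, whose signal in HS IMF 3 was 1404 against 719 to 887 in the other IMF samples. They cover the brightest probe set alone. The other tested probe sets of LAMC1 gave -0.54 to -0.91, outside its interval, and 1 of them passed. LAMC1, LAMA4 and LAMB2 also had the smallest spread within groups of all tested members, with residual SDs of 0.200, 0.230 and 0.271 log2 units beside a median of 0.531 for the members and 0.411 for all probe sets.

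Among the inhibitors, TIMP4, a TIMP known for its abundance in heart, muscle and fat, was lower in IMF. Its signal was 931, 1459 and 685 in JB IMF, 1881, 2171 and 2441 in JB SCF, 474, 1561 and 478 in HS IMF and 5761, 1855 and 3528 in HS SCF. All 6 IMF samples lay below all 6 SCF samples, the nearest being HS IMF 2 at 1561 and HS SCF 5 at 1855. TIMP4 was lower by -1.53 ± 0.37 (adjusted p = 0.0204 in limma). After normalization, TIMP4 and COL5A2 were the 2 of 38 members (5.26%) whose depots did not overlap, beside 6.24% of all probe sets. Leaving out JB IMF 1, JB IMF 3 or JB SCF 6 ended the call, with an adjusted p of at most 0.0624.

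The other TIMPs had negative differences that did not pass. TIMP1, the inducible family member, had signals between 337 and 1248 in IMF and between 578 and 3633 in SCF, a difference of -0.66 ± 0.29 (adjusted p = 0.168). TIMP3, which binds to the matrix, had -0.62 ± 0.29 (adjusted p = 0.196), and TIMP2 had -0.02 ± 0.19 from signals of 2709 to 7112. A second TIMP2 probe set, nearly as bright, gave -0.79 (adjusted p = 0.0811). The sign of the brightest TIMP2 probe set turned under several other settings, and those of TIMP1 and TIMP3 did not. All 4 TIMPs had a negative difference after quantile normalization, with arrays centred on the median and in the values as deposited, with 1 of 4 called after quantile normalization. Under these scalings of the same arrays, 44.5%, 42.1% and 33.2% of all probe sets had a positive difference. After quantile normalization 6.33% of all probe sets were called lower. Within HS, the differences of TIMP1 (-0.12), TIMP2 (-0.03) and TIMP3 (-0.31) turned positive under 3, 7 and 2 alternatives.

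Of the 6 tested MMPs, 0 passed. MMP19, a secreted protease, had the largest difference, -1.15 ± 0.48 (adjusted p = 0.145), from signals of 179, 381 and 96.6 in JB IMF, 464, 963 and 501 in JB SCF, 129, 270 and 99.7 in HS IMF and 89.5, 465 and 863 in HS SCF. The JB depots did not overlap, and HS SCF 4 lay below all other samples. MMP2, the main gelatinase of connective tissue, had signals between 182 and 960 in IMF and between 548 and 1215 in SCF and a difference of -0.33 (95% interval -0.96 to 0.29). In all, 5 of 6 tested MMPs had a negative difference, where 44.5% of all probe sets had a positive one. MMP3, a stromelysin, had 0.31 ± 0.26, with a signal of 80.2 in HS IMF 3 against 27.0 to 47.3 in the other IMF samples. The membrane-bound MMP15 and MMP16 had -0.28 ± 0.31 and -0.27 ± 0.31, and MMP23 had -0.60 ± 0.35. The sign of MMP15 turned under 2 alternatives, and MMP23 had 0.21 through its second probe set. MMP13, a collagenase left out as dim, had a difference of 0.90 ± 0.21 and passed when no probe set was left out (adjusted p = 0.0238 in limma). Its signals were 20, 18.2 and 31.1 in JB IMF, 4.09, 2.22 and 5.44 in JB SCF, 28.4, 5.99 and 26.1 in HS IMF and 0, 6.94 and 10.2 in HS SCF. The JB depots did not overlap, and HS IMF 2 lay below 2 of the HS SCF samples. The other MMP13 probe set, also left out as dim, had -0.36, the opposite sign, from signals of 0 to 17.9.

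ADAMTS1 and ADAMTS4, proteases that cut the proteoglycans aggrecan and versican, had positive differences of 0.81 ± 0.44 and 0.66 ± 0.44, neither passing (adjusted p = 0.261 and 0.356). ADAMTS1 had signals between 1715 and 8251 in IMF and between 1329 and 6409 in SCF. HS SCF 4 was the only SCF sample above 4277, and without it the difference was 1.22 with an adjusted p of 0.0367. ADAMTS1 passed in only 1 of 12 cases with 1 sample left out, with adjusted p-values of up to 0.482 in limma. ADAMTS4 ranged from 131 to 1833, and its lowest samples were HS SCF 4 and HS SCF 5 at 131 and 386.

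**Figure D3:**
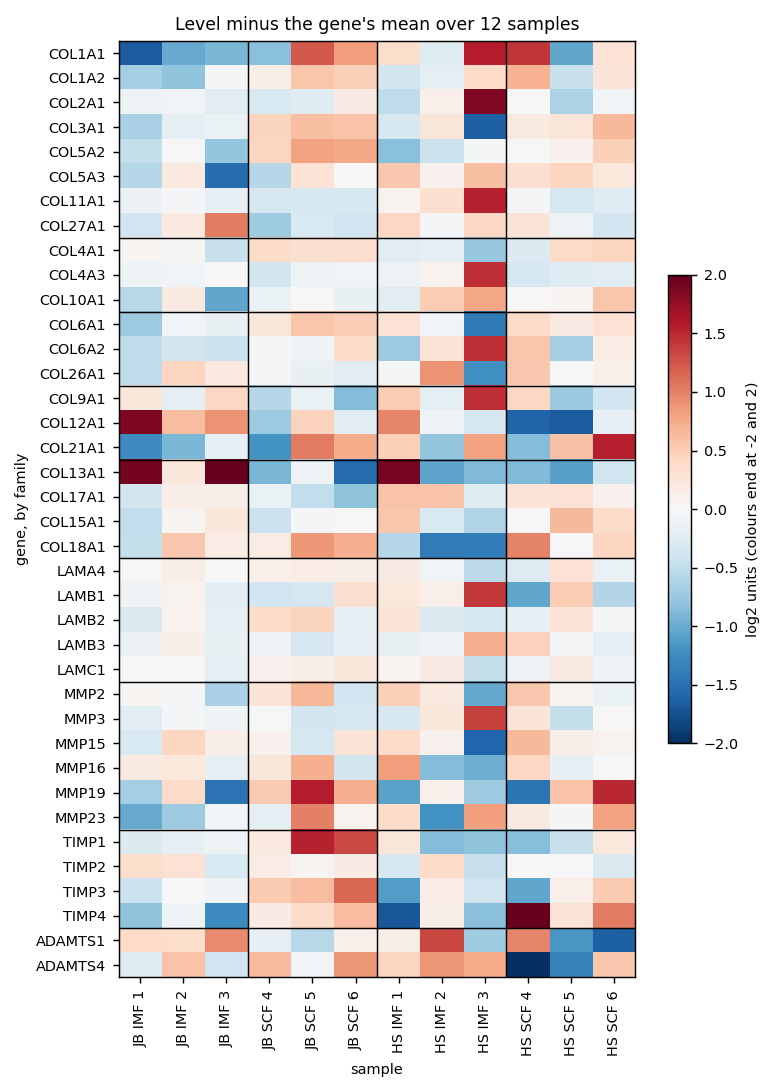
Level of each tested member in each of the 12 samples minus the gene's mean over them, in log2 units (log2(signal + 16), quantile normalized); lines separate families and groups, and colours end at -2 and 2. HS IMF 3 holds the highest value of 11 and the lowest of 12 of the 38 members, and COL12A1 and COL13A1 are high in JB IMF 1, JB IMF 3 and HS IMF 1.

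Many members were measured by several probe sets, which gave a check within the array. Of the 17 members with 2 or more tested probe sets, 13 had depot differences of one sign and 4 (COL6A2, COL12A1, COL27A1 and MMP23) did not. COL6A2 stood out. Its brightest probe set gave -0.10 (adjusted p = 0.876), and its second gave 1.72 (adjusted p = 0.00217 in limma) from signals between 58.2 and 141 in IMF and between 17.6 and 30.3 in SCF. The second probe set separated all IMF from all SCF samples, so the array gives no single depot difference for COL6A2.

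LAMC1 also depended on the probe set. The brightest gave -0.14, and the other 4 tested ones gave -0.54 to -0.91, of which 1 passed (-0.88, adjusted p = 0.0361). COL12A1 was called through its brightest probe set alone, and its dimmer ones gave 0.39 and -0.09. The second probe set of TIMP4 gave -1.59 (adjusted p = 0.0653), and those of COL3A1 and COL4A1 gave -1.05 and -0.71, close to their brightest ones. COL5A2 and COL18A1 had 1 probe set each, and thus no such check.

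**Figure D4:**
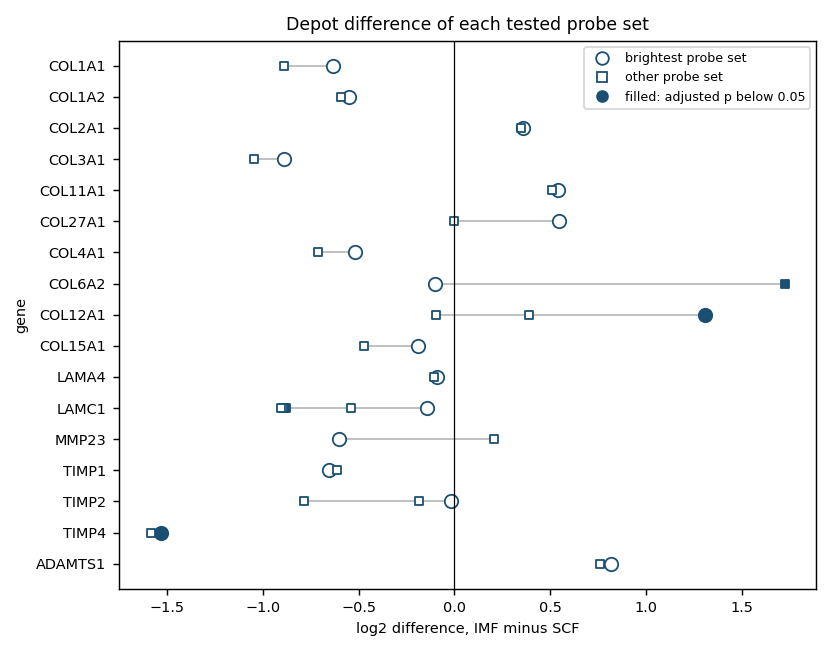
Depot difference, IMF minus SCF in log2 units, of every tested probe set of the 17 members with at least 2; circles are the brightest probe set of a gene, squares the others, and filled points passed at an adjusted p below 0.05. For COL6A2 the probe sets lie at -0.10 and 1.72, whereas those of TIMP4 lie at -1.53 and -1.59.

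Within JB, the depots differed in many members without overlap, but none passed the test. The count was 0 of 38, where limma called 3.07% of all probe sets. With array weights it was 16 (42.1%), beside 25.8% of all probe sets. At an unadjusted p below 0.05 there were 10 (26.3%), beside 13.3% of all probe sets. COL5A2 had the smallest adjusted p, 0.0661, with -1.08 ± 0.28. The JB IMF and JB SCF samples did not overlap for 16 members (42.1%), 4 higher and 12 lower in IMF, beside 30.3% of all probe sets, of which 14.1% were higher and 16.2% lower. The 4 higher ones were COL11A1, COL12A1, COL13A1 and ADAMTS1. These counts are on the normalized scale. The 12 lower ones included COL1A1, COL1A2, COL3A1, COL4A1, COL6A1, TIMP1, TIMP3 and TIMP4.

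Within HS, 1 of 38 members passed, beside 3.32% of all probe sets. This was COL18A1, lower in IMF by -1.59 ± 0.36 (3.01-fold, adjusted p = 0.0363 in limma). The call was kept in 5 of 12 cases with 1 sample left out. It ended without JB IMF 3, JB SCF 5, JB SCF 6, HS IMF 2 or 3, or HS SCF 4 or 6, with an adjusted p of 0.0525 to 0.124. TIMP4 was next with -1.95 ± 0.52 (adjusted p = 0.0630). At an unadjusted p below 0.05 there were 7 members (18.4%), beside 21.4%. The samples did not overlap for 5 members (13.2%), beside 20.5% of all probe sets. These were COL5A2, COL18A1 and TIMP4, lower in IMF, and COL11A1 and COL4A3, which were higher.

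The sign of the depot difference was the same in JB and HS for 30 of the 38 members (78.9%), 18 negative and 12 positive, beside 70.6% of all probe sets. COL3A1 was close in both breeds, with -0.86 and -0.92, as was COL12A1 with 1.29 and 1.32. The HS value of COL3A1 included HS IMF 3, at a normalized level of 11.80 beside 13.11 and 13.67 in HS IMF 1 and 2. Without that sample the difference over both breeds was -0.61. COL1A1 had -1.61 in JB and 0.34 in HS, and ADAMTS4 had -0.51 and 1.84. The second, dim probe set of COL1A1 gave -1.10 and -0.68, both negative. The HS value of COL1A1 turned negative under 4 alternatives (-0.68 to -0.16), that probe set among them. The interaction, which sets the breed difference of one depot against that of the other (IMF minus SCF), tests such contrasts directly. It called 0 members and 0% of all probe sets in limma. At an unadjusted p below 0.05 there was 1 member, ADAMTS4 with -2.36 ± 0.87 (adjusted p = 0.990), 2.63% beside 2.14% of all probe sets. The next were COL18A1 with 1.09, COL1A1 with -1.95, TIMP1 with -1.08 and COL13A1 with 1.72, none of which passed.

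The breeds were next compared within each depot. In IMF, 0 of 38 members passed in limma, beside 0.0238% of all probe sets (4 of 16811). Without adjustment, 5 members (13.2%) had a p below 0.05, beside 10.2%. COL18A1 had the smallest p, with 1.19 ± 0.36 (adjusted p = 0.485). Its JB IMF signals of 87.4, 190 and 151 all lay above its HS IMF signals of 78.1, 37.0 and 30.7. The others were COL5A3 with -1.03, COL1A1 with -1.76, COL10A1 with -0.83 and COL11A1 with -0.75, all with an adjusted p of 0.485. For each of these others, HS IMF 3, the array with the lowest median signal, held the highest normalized value of all samples. For COL5A3 its deposited signal, 362, was the lowest of HS IMF and lay below that of JB IMF 2, 501.

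For COL1A1, all JB IMF signals (731 to 1272) lay below all HS IMF signals (1752 to 5907). The interval of its difference ran from -3.21 to -0.30, and its second, dim probe set gave -0.43. For COL11A1 the second probe set gave 0.35, with the opposite sign. Samples of the breeds did not overlap for 4 members (10.5%), beside 13.8% of all probe sets. Over all probe sets the median breed difference in IMF was 0.10 after normalization, against 0.37 for the values as deposited, and the members' differences are relative to that shift. Of the members, 19 were positive and 19 negative after normalization and 23 and 15 as deposited.

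In SCF, 0 of 38 members passed in limma, beside 0.00595% of all probe sets (1 of 16811). At an unadjusted p below 0.05 there were 4 (10.5%), beside 3.56%. TIMP1 had the smallest p. Its signals were 1385, 3633 and 2796 in JB SCF and 578, 836 and 1314 in HS SCF, with a difference of 1.38 ± 0.41 (adjusted p = 1.00). The JB and HS signals as deposited did not overlap, but those after normalization did. ADAMTS4 had 1.64 ± 0.62, COL17A1 -0.69 ± 0.28, TIMP3 0.90 ± 0.41 and COL12A1 0.98 ± 0.50, all with an adjusted p of 1.00. COL12A1 was not among the 4 with an unadjusted p below 0.05. The groups did not overlap for 4 members (10.5%), beside 12% of all probe sets.

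**Figure D5:**
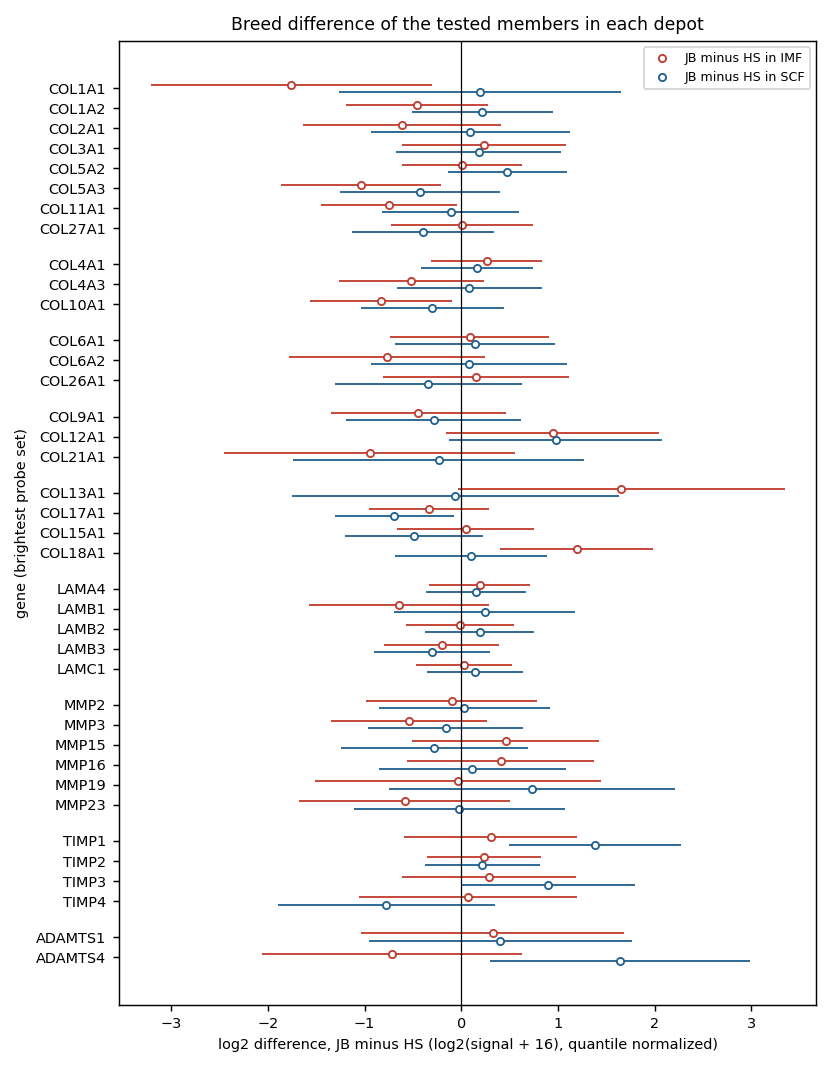
Difference between the breeds, JB minus HS in log2 units, of the 38 tested members in IMF (red) and SCF (blue), with 95% confidence intervals; 0 members passed in either depot. The intervals are wide: that of COL1A1 in IMF runs from -3.21 to -0.30 and that of TIMP1 in SCF from 0.49 to 2.27.

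The enzymes and partners of these proteins were read from 4 lists in the depot comparison. These lists were chosen with earlier results of these data known. Of all probe sets, 4.66% were called higher and 6.33% lower in IMF. Of 24 tested genes for collagen synthesis and crosslinking, 3 were higher and 4 lower in IMF, with a median difference of -0.47 beside -0.06 over all probe sets. P4HA3, a prolyl hydroxylase subunit, was higher by 2.79 (adjusted p = 7.7e-04), from signals between 102 and 1102 in IMF and between 9.44 and 128 in SCF. TGM2, a transglutaminase that crosslinks matrix proteins, was higher by 2.81 (adjusted p = 0.00295). PEPD, which frees proline from collagen peptides, was lower by -1.62 (adjusted p = 0.00156). The 3 genes with the smallest p thus did not move in one direction.

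Of 7 tested basement membrane partners, 1 was lower and 0 were higher, with a median of -0.18. NID2, a nidogen that links laminin to type IV collagen, was lower by -1.10 (adjusted p = 0.0214), from signals between 618 and 3259 in IMF and between 3728 and 5049 in SCF. NID1 had -0.71 (adjusted p = 0.0600) and FBLN1, a fibulin that also stands among the fibroblast markers below, 0.71 (adjusted p = 0.0617). Of 18 tested matrix receptors, 1 was higher and 0 lower, with a median of 0.00. It was SGCA, a sarcoglycan of the muscle fibre membrane, higher by 2.60 (adjusted p = 4.9e-04). ITGA7, the laminin-binding integrin of muscle, had 1.07 (adjusted p = 0.0742) and ITGA3 0.59 (adjusted p = 0.0791).

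Of 16 tested genes of the plasminogen system, cathepsins and inhibitors, 6 were lower and 0 higher in IMF, with a median of -0.61. Over all probe sets, 6.33% were lower and 4.66% higher. CTSK, a collagen-degrading cathepsin, was lower by -1.12 (adjusted p = 0.00125), CTSS, a cathepsin of antigen-presenting cells, by -1.42 (adjusted p = 0.00900) and PLAUR, the urokinase receptor, by -0.95 (adjusted p = 0.0173). In each of the breed comparisons and the interaction, 0 genes of these 4 lists passed. Of all probe sets, 0.0238% passed between the breeds in IMF, 0.00595% in SCF and 0% in the interaction.

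Markers of several other cell types also differed between the depots. Their counts of calls stand beside 4.66% of all probe sets higher and 6.33% lower in IMF. Of 6 macrophage markers, 6 were lower in IMF, with a median difference of -2.34 and a summed signal of 1298 to 4037 in JB IMF, 10324 to 22065 in JB SCF, 1366 to 1791 in HS IMF and 6983 to 12478 in HS SCF. Of 8 skeletal muscle markers, 6 were higher, with a median of 6.25, and of 6 smooth muscle and pericyte markers, 4 were higher, with a median of 2.91. Of 8 fibroblast and stromal markers, 2 were called lower and 0 higher. Their differences were positive for 4 and negative for 4, with a median of -0.11. Their sums were 21458 to 22297 in JB IMF, 22705 to 26856 in JB SCF, 8459 to 20405 in HS IMF and 18623 to 24834 in HS SCF. Of 5 tested endothelial markers 0 passed, with a median of -0.06, and of 6 adipocyte markers 0 passed, all 6 with a negative difference and a median of -0.89. Of 3 Schwann cell markers, 2 were called lower and 0 higher in IMF, and 1 had a positive difference, with a median of -1.60 for the 3 markers. Their sums were 3123 to 5319 in JB IMF, 8596 to 12840 in JB SCF, 1358 to 2341 in HS IMF and 6082 to 9786 in HS SCF, so that the depots did not overlap. The part of the cell mixture in the differences of COL5A2, COL18A1, TIMP4 and COL12A1 was not tested.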

How the data were processed

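For each of 12 samples the authors deposited 1 linear intensity per probe set, 24128 in all. GCOS 1.1.1 is named in the submitters' processing notes, as is version 1.1 of Affymetrix Expression Console. How probes were summarized and arrays scaled before deposit was not given in the sources used here. Per the labels' protocols, biotin-labelled cRNA was made from 0.5 ug of total RNA.

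Signals were turned into log2(signal + 16) and quantile normalized. The 112 control probe sets were dropped, then the dimmest 30% of the other 24016 by mean (7205), which left 16811. Linear models with 4 group means were fitted over all 12 samples with lmFit and eBayes of limma 3.58.1 under R 4.3.3. The residual degrees of freedom were 8, the prior ones 4.05, and p-values were adjusted by Benjamini-Hochberg over the 16811 within each of 6 comparisons. The procedure was tested on simulated data.

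Genes were named from the annotation of the array. The 97 member probe sets all matched a RefSeq gene (assembly ARS-UCD2.0) of the same symbol by Entrez identifier, and that table also gave neighbours. The brightest probe set stood for a gene. Members and lists were chosen with earlier results of these data known. Members were named by this rule: those that passed, the brightest of each family, the well-known chains, proteases and inhibitors, the 5 smallest p of each breed comparison and the interaction, and 3 genes of each related list. Other members stand with their family. Labels were read with jsonlite 2.0.0. Python 3.11.15 with matplotlib 3.10.9, numpy 2.4.6 and pandas 2.3.3 made the figures.

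The sample numbers were the same in JB and HS, but the deviations of same-numbered samples from their group means correlated with r of -0.28 to 0.12, so they were not treated as pairs. Alternatives were values as deposited, median centring, a pseudocount of 1, no filter, 50% left out as dim, 1 probe set per gene, the second brightest probe set, array weights, a variance model with trend and robust settings, fits on the compared groups alone, a replicate block, and samples left out.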

Additional observations from a re-analysis of the deposited data

Results flagged for a closer look

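Within the 6 samples of a depot, 12 of 76 sets of normalized values of the tested members held a sample far from the others by Dixon's criterion (the gap to the nearest sample over the range). The criterion's nominal rate is about 1 in 20 for a single uniform group, but each set here mixed both breeds. The share over all probe sets was not counted, so the count is not a result about the members. HS IMF 3 was the sample apart in 8 of the 12 sets. Over all tested probe sets HS IMF 3 held the highest value for 21.8% and the lowest for 29.9%. Its normalized level, log2(signal + 16), was high for COL2A1 at 8.57 (6.21 to 6.81 in the other IMF samples), COL11A1 at 8.36 (6.66 to 7.14), COL4A3 at 7.38 (5.81 to 5.99), LAMB1 at 11.01 (9.37 to 9.80), LAMB3 at 7.09 (6.23 to 6.50) and MMP3 at 7.13 (5.45 to 5.99). It was low for LAMA4 at 10.66 (11.13 to 11.35) and MMP15 at 4.06 (5.34 to 6.08). The array of HS IMF 3 also had the lowest median signal, 58.8, and the part of the array in these values was not tested.

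In SCF, HS SCF 4 lay apart for 3 members. It was high for COL11A1 at 6.79 (6.47 to 6.57 in the other SCF samples) and low for COL4A1 at 12.88 (13.48 to 13.59) and MMP19 at 6.74 (8.73 to 9.78). HS SCF 6 was high for COL10A1 at 7.93 (7.22 to 7.41).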

How the results depend on the processing

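Between the depots over both breeds, 4 members passed, beside 11.0% of all probe sets. The count was 10 with array weights (18.8% of all probe sets), 7 without HS IMF 3 and HS SCF 4 (15.4%), 1 without JB SCF 6 and HS SCF 5 (4.76%), 5 with no probe set left out as dim (8.17%, the added one being MMP13), and 0 to 7 with 1 sample left out. With 1 sample left out, 5.49% to 13.9% of all probe sets passed. The members' count was 0 without JB IMF 1, JB IMF 3 or JB SCF 6 (5.81%, 5.49% and 6.63% of all probe sets). It was 2 without JB SCF 5 or HS SCF 6 (6.11% and 6.33%), and 7 without HS IMF 2 or HS SCF 4 (12.1% and 12.3%). TIMP4 was called under 19 of 23 alternatives, COL5A2 under 17, COL18A1 under 16 and COL12A1 under 12, and all 4 kept their direction in each. The tallies are not fully comparable. COL5A2 and COL18A1 had 1 probe set each, so the second brightest probe set setting repeated their main calls and counted them. TIMP4 and COL12A1 lost their calls in that setting. Between the depots in JB, 0 passed, beside 3.07% of all probe sets. The count was 1 in the values as deposited (2.76%), 16 with array weights (25.8%) and 2 with only the groups compared (6.17%). It was 1 without HS IMF 3 and HS SCF 4 (5.01%) and 0 to 2 with 1 sample left out (1.30% to 4.24%). In HS, 1 passed, beside 3.32% of all probe sets. The count was 2 as deposited (3.78%), 2 with median centring (3.37%) and 2 through the second brightest probe set (3.32%). It was 0 with array weights (1.09%), 0 with only the groups compared (0.94%) and 0 without JB SCF 6 and HS SCF 5 (1.30%). With 1 sample left out it was 0 to 2 (1.14% to 6.64%). The 2 breed comparisons called 0 members under 25 alternatives each and the interaction under 23. Sample numbers do not pair these samples, and the replicate block also called 0 in both breed comparisons. For the cases that moved, the cause was not tested.

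The sign of the depot difference over both breeds turned under at least 1 alternative for 9 of 38 members, none of them called: COL10A1, COL26A1, COL27A1, COL6A2, LAMA4, LAMB3, MMP15, MMP23 and TIMP2. The depot difference of COL6A2 was 1.72 through its second brightest probe set, 0.17 without HS IMF 1 and 0.034 without HS SCF 4, and -0.39 to 0.17 over all cases with 1 sample left out. That of LAMA4 was -0.17 to 0.0068 with 1 sample left out, positive without HS IMF 3. That of TIMP2 was 0.12 with array weights, 0.084 without HS IMF 3 and HS SCF 4, 0.012 without JB SCF 6 and HS SCF 5, and -0.15 to 0.079 with 1 sample left out, positive without JB IMF 3, HS IMF 1 or 3, or HS SCF 4 or 5. The breed difference of COL11A1 in IMF was 0.35 through its second brightest probe set. Dim probe sets limit what can be compared: 11 of 49 members were not tested. The fit with only the groups compared was the same as the one reported for the depots over both breeds.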
